A study of Oryctolagus cuniculus with 6 samples.

Results

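The genes described here are 5 rows of a table of 16367 rabbit genes, chosen by symbol: PDGFRB, RGS5, PPP1R12A, ACTA2 and MYH11. They are used as markers or working parts of pericytes and smooth muscle, the contractile cells that wrap blood vessels. All 5 symbols were present, each in a single row, and all 5 passed the filter on low counts. The table comes from RNA-seq of rabbit (Oryctolagus cuniculus) tissue, with 3 libraries labelled control and 3 labelled test. The labels give subcutaneous tissue as the source of all 6, while the series title names perichondral tissue. They do not state what the test group received, the strain or age of the animals, or whether the libraries came from separate animals, so p-values measure only the spread between these libraries.

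Pericytes sit on capillaries and smooth muscle cells on larger vessels. Platelet-derived growth factor B from the endothelium recruits both through the receptor PDGFRB, and RGS5 shortens the G protein signals that tell them to contract. Contraction runs on smooth muscle actin (ACTA2) and smooth muscle myosin (MYH11) once the myosin light chain is phosphorylated, and myosin phosphatase, held on myosin by PPP1R12A, takes that phosphate off again. ACTA2 and PDGFRB are also made by fibroblasts and myofibroblasts of healing tissue, and PPP1R12A is made by most cell types.

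Test tissue held less RGS5, PPP1R12A and ACTA2 than control tissue, at 1.99-fold, 2.27-fold and 2.47-fold lower levels. In each of these 3 genes every test library was below every control library. PDGFRB was slightly higher in test tissue in every library, by 1.32-fold, but did not pass the threshold. MYH11 was 2.61-fold lower on average, and its groups overlapped because 1 control library was as low as the test libraries. The 3 genes called lower compare with 6.15% of the 12740 tested genes called lower and 6.84% called higher, or 13% in all, by edgeR's quasi-likelihood test at an adjusted p under 0.05. Groups that did not overlap were found in 16.6% of tested genes with the test group below and in 18.4% with it above, or 35% in all.

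**Figure D1:**
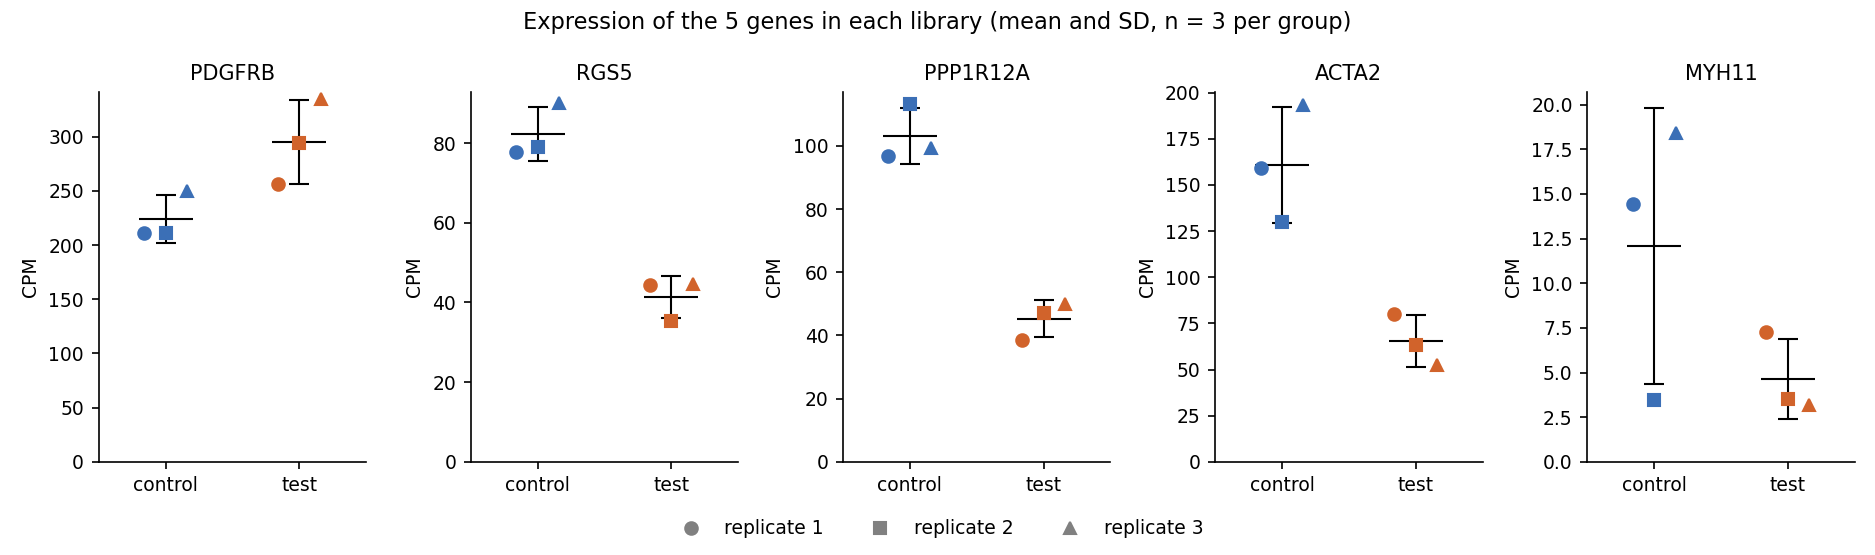
Expression of PDGFRB, RGS5, PPP1R12A, ACTA2 and MYH11 in each library, in CPM (counts scaled to library size) on linear axes that start at 0; points are libraries, horizontal lines the group mean and whiskers the SD (n = 3 per group). RGS5, PPP1R12A and ACTA2 separate with the test libraries below, PDGFRB separates narrowly with them above, and control replicate 2 of MYH11 (3.49 CPM) lies among the test libraries.

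Total counts ran from 17820537 to 23105606 per library. Levels are given in CPM, which divides a gene's count by its library's TMM-adjusted total, as mean ± SD of the 3 libraries of a group, and values by library are listed from replicate 1 to replicate 3. CPM is not scaled to transcript length, so levels are compared between libraries and not between genes. Cartilage genes and fat cell genes were both detected. The summed level of 9 cartilage genes was 2345 to 4744 CPM in control and 4112 to 5687 CPM in test libraries, and the fat cell gene ADIPOQ was at 103.1 ± 38.3 CPM in control and 32.6 ± 4.59 CPM in test libraries, while the fat cell hormone LEP was at 0 in all 6. In a tissue sample, fewer cells of a type and less RNA per cell cannot be told apart.

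PDGFRB (ENSOCUG00000001725), the receptor through which PDGF-B recruits mural cells, was measured at 211.3, 210.8 and 249.6 CPM in the control libraries and at 256.6, 294.4 and 334.7 CPM in the test libraries. The groups did not overlap, but the lowest test library was only 1.03 times the highest control library. The means were 223.9 ± 22.3 CPM in control and 295.2 ± 39 CPM in test tissue (n = 3 per group, as throughout). The log2 fold change was 0.40 ± 0.13 (SE), with an unadjusted 95% interval of 0.11 to 0.69, and the edgeR adjusted p was 0.0713. The difference missed the threshold, and the interval reaches up to a 1.61-fold higher level. The DESeq2 Wald test called it (adjusted p = 0.048).

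Of 17 tested ligands, receptors and adaptors, of the PDGF pathway, edgeR called 1, PDGFRL, a receptor-like protein without a kinase, which rose from 124.9 ± 37.9 to 207.7 ± 19.8 CPM (adjusted p = 0.0393 by edgeR). That call ended without control replicate 3 or any single test library (adjusted p between 0.0913 and 0.146). The ligand PDGFB was measured at 6.05 ± 2.29 CPM in control and 5.84 ± 1.28 CPM in test tissue, and its small difference turned positive without control replicate 1 or test replicate 1. The 1 call is 5.88% of the 17 genes, beside 6.84% of all tested genes called higher. The median log2 fold change of the 17 genes was 0.08, beside -0.0038 over all tested genes. No row carried the symbol PDGFRA, so it was not analysed here.

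RGS5 (ENSOCUG00000001169), the G protein regulator that marks pericytes, was measured at 77.8, 78.9 and 90.1 CPM in the control libraries. In the test libraries it was at 44.3, 35.4 and 44.5 CPM. The lowest control library was 1.75 times the highest test library, and both groups were tight, with coefficients of variation of 8.28% and 12.6%. The mean fell 1.99-fold, from 82.3 ± 6.81 to 41.4 ± 5.2 CPM, a log2 fold change of -0.99 ± 0.14 (adjusted p = 0.00234 by edgeR). The call held in all 15 alternative analyses, including those that left out 1 library.

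RGS family members went in both directions. RGS1, a regulator of lymphocytes and other leukocytes, rose from 75.1 ± 8.92 to 162.5 ± 9.69 CPM, and RGS3 rose from 56.7 ± 7.47 to 140.5 ± 26.2 CPM (adjusted p = 0.000787 and 0.00116 by edgeR). RGS18, a regulator found in platelets and myeloid cells, fell from 23.5 ± 4.83 to 11.3 ± 2.34 CPM (adjusted p = 0.0155 by edgeR), a call that ended without test replicate 2 or 3 (0.0765 and 0.078). RGS4, another regulator reported in mural cells, was measured at 30.2 ± 6.37 and 37.1 ± 12.4 CPM, with overlapping groups (adjusted p = 0.488 by edgeR). Of 9 tested family members, 2 were called higher and 2 lower, or 22.2% each way, beside 6.84% and 6.15% of all tested genes.

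The proportion of RGS5 to PDGFRB, both pericyte markers, was lower in every test library. The ratio of RGS5 to PDGFRB raw counts needs no scaling between libraries. It was 0.368, 0.374 and 0.361 in the control libraries and 0.173, 0.12 and 0.133 in the test libraries. The ratio was nearly the same in all control libraries and 2.62-fold lower in the test group, from 2.43-fold to 2.91-fold when 1 library was left out. By a two-sided exact permutation test over 3 and 3 libraries p was 0.1, its lower limit in this design, and 0.133 adjusted over the 8 ratios compared, which were chosen after the values were seen. The ratio of ACTA2 to PDGFRB was 0.754, 0.617 and 0.774 in control and 0.312, 0.215 and 0.156 in the test libraries, 3.25-fold lower with the same exact p of 0.1. By contrast, RGS5 to ACTA2 overlapped, at 0.466 to 0.607 in control and 0.553 to 0.851 in test libraries (exact permutation p = 0.3, n = 3 per group).

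**Figure D2:**
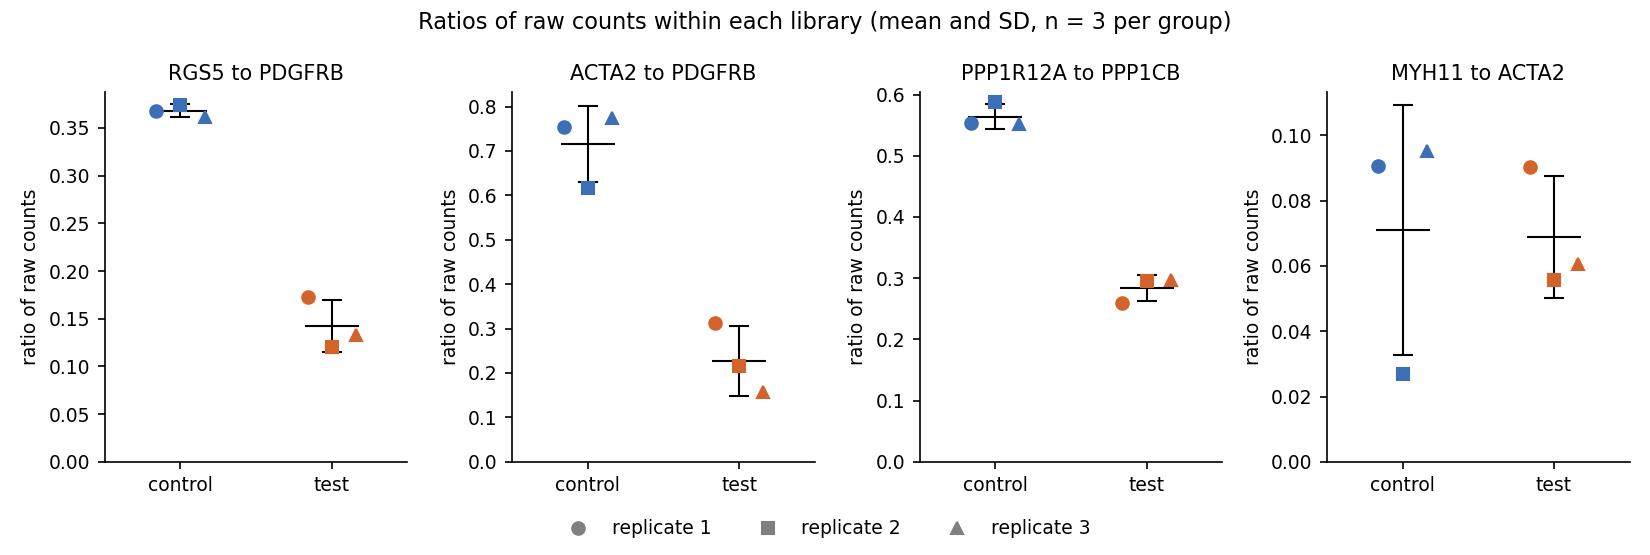
Ratios of raw counts of gene pairs within each library, on linear axes that start at 0; points are libraries, lines the group mean and whiskers the SD (n = 3 per group). The ratios of RGS5 to PDGFRB, ACTA2 to PDGFRB and PPP1R12A to PPP1CB are lower in every test library, while MYH11 to ACTA2 overlaps between groups, with control replicate 2 lowest at 0.0268.

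Across the wider list of pericyte and mural cell markers, 4 of 21 tested genes were called lower and 1 higher. Those shares are 19% and 4.76%, beside 6.15% and 6.84% of all tested genes. The median log2 fold change of the list was -0.21, beside -0.0038 over all tested genes. Beside RGS5, the genes that fell were KCNJ8, EBF1 and ENPEP. KCNJ8, the pore of the mural cell ATP-sensitive potassium channel, fell from 41.3 ± 13.3 to 23.1 ± 2.46 CPM (adjusted p = 0.042 by edgeR). EBF1, a transcription factor of mural and other stromal cells, fell from 35.9 ± 8.7 to 21.7 ± 0.169 CPM, and ENPEP, an aminopeptidase that processes angiotensin, from 69.3 ± 5.31 to 50 ± 1.55 CPM (adjusted p = 0.0364 and 0.0297 by edgeR). NDUFA4L2, a mitochondrial protein that hypoxia induces, rose from 35.5 ± 10.7 to 64.7 ± 12.8 CPM (adjusted p = 0.0319 by edgeR). The proteoglycan CSPG4 was at 31.7 ± 8.91 and 37.2 ± 9.24 CPM and the receptor NOTCH3 at 51.3 ± 16.4 and 32.2 ± 8.08 CPM, both with overlapping groups (adjusted p = 0.565 and 0.111 by edgeR). ABCC9, the channel subunit that pairs with KCNJ8 and was named after its values were seen, was at 64.8 ± 19.5 and 41.9 ± 1.95 CPM without overlap (adjusted p = 0.0679 by edgeR).

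RGS5 was the member of that list whose call held in every alternative, and the list had 1 gene called lower without control replicate 3 or any single test library. The calls of KCNJ8, EBF1, ENPEP and NDUFA4L2 each ended without control replicate 3, test replicate 2 or test replicate 3 (adjusted p from 0.0562 to 0.478 over all alternatives that ended them), and those of KCNJ8, EBF1 and ENPEP without test replicate 1 as well. KCNJ8 was also lost without control replicate 1 and EBF1 without control replicate 2. With all 6 libraries, the calls of EBF1, ENPEP and NDUFA4L2 ended after the span correction, where the log2 fold change of NDUFA4L2 was 0.33 in place of 0.87, and those of KCNJ8 and EBF1 ended with limma-voom and TMM. The list had 2 of 20 tested genes called lower after the span correction, RGS5 and KCNJ8, beside 429 of all 8880 tested. NOTCH3 was called without control replicate 2 (adjusted p = 0.0114). Calls over all genes dropped in the same analyses, from 1655 to between 446 and 710 without control replicate 3 or any single test library.

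**Figure D3:**
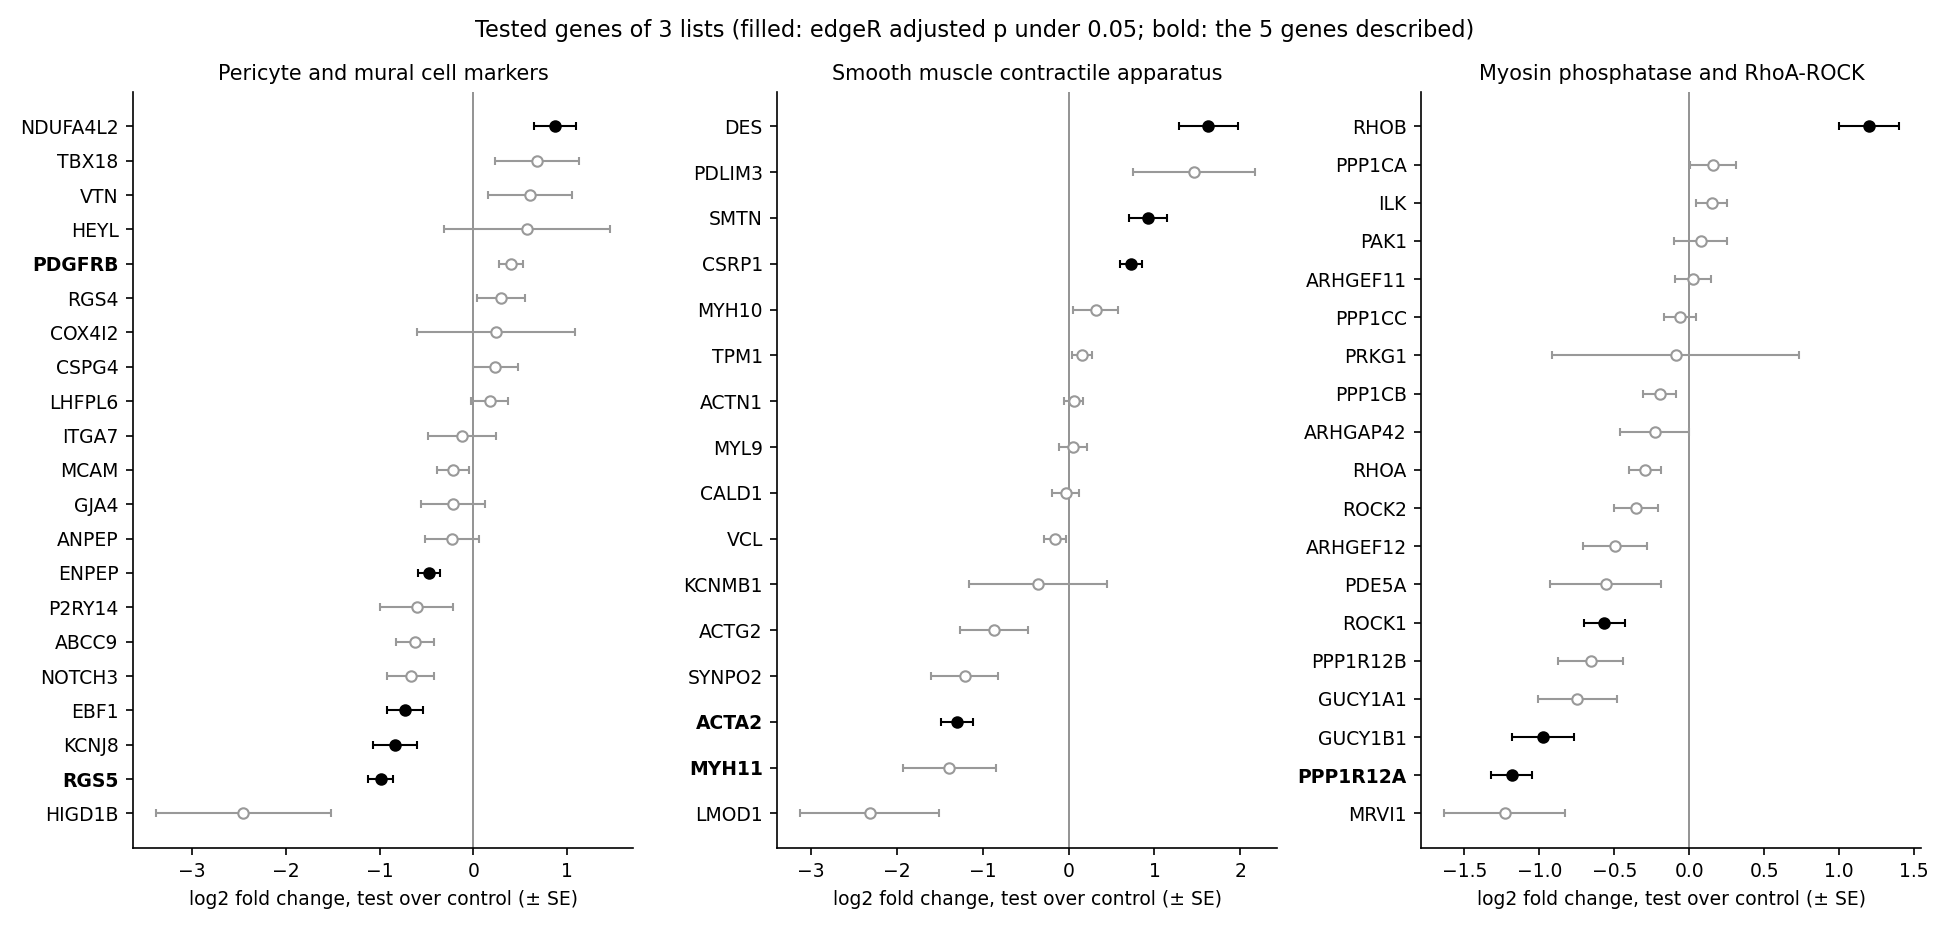
Log2 fold change of test over control with its SE for tested genes of 3 lists, sorted by value, with 1 contractile gene not shown; filled points have an edgeR adjusted p under 0.05, and the 5 genes described are in bold. RGS5 lies near the lower end of the mural list where PDGFRB lies above 0, ACTA2 and MYH11 lie among the lower contractile genes where DES is highest, and PPP1R12A lies far below the phosphatase catalytic subunits.

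PPP1R12A (ENSOCUG00000016701) encodes MYPT1, the subunit that targets myosin phosphatase to myosin. It was measured at 96.8, 113.3 and 99.2 CPM in the control libraries and at 38.6, 47.2 and 50 CPM in the test libraries. The gap between the groups was the widest of the 5 genes, with the lowest control library at 1.93 times the highest test library. The mean fell 2.27-fold, from 103.1 ± 8.92 to 45.3 ± 5.94 CPM, and the edgeR adjusted p was 0.000913, the smallest of the 5. The call held in all 15 alternatives. PPP1R12A spans more of the genome than 86.6% of tested genes with a known span, and correcting each library for its trend with span gave a log2 fold change of -0.99 in place of -1.19.

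None of the other tested subunits, PPP1R12B and the catalytic subunits PPP1CA, PPP1CB and PPP1CC, was called by edgeR. PPP1CB, the catalytic subunit of myosin phosphatase, was at 182.6 ± 9.17 CPM in control and 159.3 ± 9.95 CPM in test tissue, without overlap but with an edgeR adjusted p of 0.265. The ratio of PPP1R12A to PPP1CB raw counts was 0.553, 0.588 and 0.552 in the control libraries and 0.26, 0.295 and 0.297 in the test libraries, 1.99-fold lower (two-sided exact permutation p = 0.1, n = 3 per group, 0.133 adjusted over 8 ratios). PPP1R12B, the related targeting subunit of striated and smooth muscle, was at 21.9 ± 5.3 and 13.9 ± 1.7 CPM, also without overlap (adjusted p = 0.0751 by edgeR), and was called without control replicate 1 and by DESeq2. PPP1R14A, the smooth muscle inhibitor of this phosphatase, had 12, 7 and 18 counts in control and 1, 3 and 0 counts in test libraries, too few to be tested. No row carried the symbol PPP1R12C, so it was not analysed here.

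A further list took in the phosphatase, the RhoA and ROCK pathway that restrains it, and nitric oxide and cyclic GMP signalling. Of its 19 tested genes, edgeR called 3 lower and 1 higher. Those shares are 15.8% and 5.26%, beside 6.15% and 6.84% of all tested genes. The median log2 fold change of the 19 genes was -0.29. ROCK1, a kinase that phosphorylates MYPT1 and so inhibits the phosphatase, fell from 205.9 ± 38 to 139.2 ± 5 CPM. GUCY1B1, a subunit of the soluble guanylate cyclase through which nitric oxide relaxes smooth muscle, fell from 27.7 ± 3.93 to 14.1 ± 3.05 CPM (adjusted p = 0.0264 and 0.0155 by edgeR). RHOB, a small GTPase that growth factors and stress induce, rose 2.3-fold, from 52.9 ± 13.7 to 121.4 ± 19.9 CPM (adjusted p = 0.00506 by edgeR). RHOA was at 722.3 ± 19.9 and 589.3 ± 48.2 CPM and ROCK2 at 81.7 ± 15.2 and 64 ± 2.25 CPM, neither called (adjusted p = 0.0992 and 0.144 by edgeR) and both without overlap. MRVI1, a substrate of the cyclic GMP kinase that lowers calcium release, was at 7.37 ± 2.71 and 3.14 ± 1.09 CPM (adjusted p = 0.0716 by edgeR).

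In this list the calls of PPP1R12A and RHOB held in every alternative. PPP1R12A alone was called lower without control replicate 3, test replicate 1 or test replicate 2. The call of ROCK1 ended without control replicate 3 or any single test library and after the span correction (adjusted p from 0.0519 to 0.12). That of GUCY1B1 ended without control replicate 3, test replicate 1 or test replicate 2 (0.0606 to 0.0766). Left without control replicate 1, the data called ROCK2, and left without control replicate 2, they called MRVI1.

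ACTA2 (ENSOCUG00000008193), the actin of smooth muscle thin filaments, was measured at 159.2, 130.1 and 193.2 CPM in the control libraries. In the test libraries it was at 80.2, 63.2 and 52.3 CPM. The lowest control library was 1.62 times the highest test library, although control libraries spread more than for RGS5, with a coefficient of variation of 19.6%. The mean fell 2.47-fold, from 160.8 ± 31.6 to 65.2 ± 14.1 CPM, a log2 fold change of -1.30 ± 0.19 (adjusted p = 0.00277 by edgeR). The call held in all 15 alternatives, where the log2 fold change ran from -1.47 to -1.15.

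Reads of ACTA2 can be shared with other actins, so its value is uncertain. ACTG2, the enteric smooth muscle actin, was at 9.72 ± 4.35 CPM in control and 5.32 ± 1.87 CPM in test tissue, with overlap (adjusted p = 0.181 by edgeR). The striated muscle actins went the other way. ACTA1 had 14, 36 and 1 counts in control and 401, 409 and 384 counts in the test libraries, and ACTC1, named after its values were seen, had 15, 43 and 14 against 605, 619 and 547 counts. The log2 fold change of ACTA1 was 4.77 (adjusted p = 0.00193 by edgeR), and 5.99 without control replicate 2. The cytoplasmic actin ACTG1 was at 254.3 ± 56.2 and 312.2 ± 8.13 CPM (adjusted p = 0.232 by edgeR).

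MYH11 (ENSOCUG00000013450), the myosin heavy chain of differentiated smooth muscle, was measured at 14.4, 3.49 and 18.4 CPM in the control libraries and at 7.24, 3.52 and 3.17 CPM in the test libraries. Control replicate 2 was at the level of the lower test libraries, and the highest control library was at 5.28 times its level. This gap is wider than counting error, since control replicate 2 held 76 counts (exact 95% Poisson interval 59.9 to 95.1) and control replicate 1 held 349 (313.3 to 387.6). The means were 12.1 ± 7.73 and 4.65 ± 2.26 CPM, a log2 fold change of -1.39 ± 0.54, with an unadjusted 95% interval of -2.59 to -0.18 and an edgeR adjusted p of 0.123. Without control replicate 2 the fall was 3.54-fold and was called (adjusted p = 0.00883 by edgeR), and the DESeq2 Wald test called it with all 6 libraries.

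MYH11 and ACTA2 did not keep a fixed proportion among control libraries. Their ratio of raw counts was 0.0906, 0.0268 and 0.0953 in the control libraries and 0.0903, 0.0557 and 0.0607 in the test libraries, with overlapping groups (two-sided exact permutation p = 1, n = 3 per group). The low control value of MYH11 was shared with endothelial genes: of 18 tested endothelial markers, 17 were lowest in control replicate 2 among the controls, as were 11 of 16 macrophage markers, 12 of 21 mural markers and 39% of all tested genes. Its part in the MYH11 value was not tested. In the contractile list it was the lowest control for 7 of 17 genes. RGS5, PPP1R12A and PDGFRB differed between control libraries by at most 1.18-fold, against 5.28-fold for MYH11.

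The remaining contractile genes did not move as one. Of 17 tested genes of the smooth muscle contractile apparatus, 2 were called lower, among them ACTA2, and 3 higher, DES, SMTN and CSRP1. Those shares are 11.8% and 17.6%, beside 6.15% and 6.84% of all tested genes. The median log2 fold change of the list was -0.03. DES, the intermediate filament of smooth and striated muscle, rose 3.09-fold, from 2.53 ± 0.846 to 7.84 ± 0.659 CPM (adjusted p = 0.0157 by edgeR). SMTN, which binds actin in smooth muscle and has other isoforms in striated muscle, rose from 38.2 ± 10.5 to 72.5 ± 18.9 CPM, and CSRP1, a LIM protein of smooth muscle and other cells, from 54.7 ± 6.56 to 90.7 ± 7.32 CPM (adjusted p = 0.0247 and 0.00802 by edgeR). Skeletal muscle fibre markers were also higher in test libraries, with 10 of 17 called, and their part in the values of DES, SMTN, FHL1 and CASQ2 was not tested. The regulatory light chain MYL9 was at 31.7 ± 2.19 and 32.9 ± 4.95 CPM (adjusted p = 0.857 by edgeR), and its small difference turned negative after the span correction or without test replicate 2. LMOD1, a filament nucleator of smooth muscle named after its values were seen, had 39, 35 and 30 counts in control and 10, 5 and 2 counts in the test libraries (adjusted p = 0.0885 by edgeR).

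ACTA2 was the contractile gene whose call held in every alternative, and the list had 1 gene called lower without control replicate 3 or any single test library. Of all 13082 to 13127 tested genes, 201 to 314 were then called lower. Leaving out test replicate 3 ended the calls of DES, SMTN and CSRP1 (adjusted p from 0.0542 to 0.116 over all alternatives that ended them), test replicate 2 those of DES and SMTN, and test replicate 1 that of DES. No row carried the symbols TAGLN, CNN1 or MYLK, so these were not analysed here. Rows were found for 18 of the 26 genes of the contractile list, and 5067 rows of the table have no symbol. MYOCD, the smooth muscle coactivator, had 8, 28 and 0 counts in control and 0, 1 and 1 counts in the test libraries, too few to test, and SRF, its DNA-binding partner, was at 26.6 ± 3.52 and 29.8 ± 2.04 CPM (adjusted p = 0.553 by edgeR).

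Among 16 tested regulators of the SRF and myocardin system, 1 was called higher and 1 lower. Each is 6.25% of the list, beside 6.84% and 6.15% of all tested genes. FHL1, a LIM protein of striated and smooth muscle, rose from 55.7 ± 18.5 to 103.7 ± 6.21 CPM, and MEF2C fell from 47 ± 9.27 to 30.9 ± 2.03 CPM (adjusted p = 0.0186 and 0.0398 by edgeR). The call of FHL1 ended without control replicate 3 or any single test library (adjusted p between 0.0575 and 0.0825). That of MEF2C ended without any single library but control replicate 2 and after the span correction (0.0693 to 0.17).

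Calcium and channel genes of smooth muscle were called in both directions. Of 20 tested genes, 4 were called lower and 3 higher, with a median log2 fold change of -0.36. Those shares are 20% and 15%, beside 6.15% and 6.84% of all tested genes. Without control replicate 3 or any single test library, 1 or 2 were called lower and at most 1 higher. Calls over all genes were then 201 to 314 lower and 245 to 396 higher, of 13082 to 13127 tested. TRPC6, a receptor-operated cation channel, had 91, 79 and 50 counts in control and 8, 11 and 2 counts in the test libraries, a log2 fold change of -3.11 ± 0.71. SLC8A1, the sodium-calcium exchanger, fell from 36.3 ± 6.71 to 17.7 ± 1.44 CPM, and ITPR1, a calcium release channel, from 69.7 ± 7.76 to 42.9 ± 3.93 CPM (adjusted p = 0.0205, 0.0071 and 0.0111 for the 3 genes by edgeR). CASQ2, a calcium store protein of heart and slow skeletal muscle as well as smooth muscle, rose from 1.37 ± 0.37 to 4.8 ± 0.676 CPM (adjusted p = 0.0245 by edgeR). The others called higher, named after their values were seen, were the endothelin receptor EDNRA, from 53 ± 10.6 to 87.2 ± 14.7 CPM, and KCNMA1, the pore of the large-conductance calcium-activated potassium channel, from 25.9 ± 10.3 to 52.1 ± 11.5 CPM (adjusted p = 0.0255 and 0.0389 by edgeR). Without any single test library none of the 3 was called. The call of SLC8A1 held in every alternative, those of TRPC6 and CASQ2 were lost when any of the test libraries was left out (adjusted p between 0.0581 and 0.1), and that of ITPR1 ended without control replicate 3, test replicate 2 or test replicate 3 and after the span correction (0.0535 to 0.0695).

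The deposited annotation assigns 84 named genes to the KEGG pathway of vascular smooth muscle contraction, among them ACTA2 and PPP1R12A but not MYH11. Of 70 tested genes of this pathway, looked up after the values were seen, 10 were called lower and 3 higher. Their median log2 fold change was -0.20. Without control replicate 3 or any single test library, 4 to 7 of 71 to 73 tested pathway genes were called lower. Those called higher were lost. Calls over all genes fell as well, to 201 to 314 lower and 245 to 396 higher of 13082 to 13127 tested. With the span correction, 6 of 70 were called lower and 6 higher, beside 429 lower and 460 higher of all 8880 tested. In the reported analysis 14.3% of the pathway were called lower and 4.29% higher, beside 6.15% and 6.84% of all tested genes.

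Signals that mature vessels and their mural coat were mixed. Of 26 tested genes, TGFBR2 fell from 143 ± 20.7 to 78.6 ± 6.18 CPM, and VEGFA and TGFB3 rose. The list thus had 3.85% called lower and 7.69% higher, beside 6.15% and 6.84% of all tested genes. TGFBR2 is the receptor through which TGF-beta drives smooth muscle differentiation, and its call held in every alternative (adjusted p = 0.00401 by edgeR). VEGFA, the main endothelial growth factor, rose from 162.9 ± 60.6 to 403.6 ± 32.8 CPM, a call that also held in every alternative (adjusted p = 0.00588 by edgeR). TGFB3, a ligand of TGFBR2, rose from 34.1 ± 11.7 to 59.4 ± 4.81 CPM (adjusted p = 0.0493 by edgeR), a call that ended in 6 alternatives, among them those without control replicate 3 or any single test library (0.0505 to 0.157). CDH2, the cadherin that joins pericytes to endothelium, was at 21 ± 6.7 and 10.7 ± 3.55 CPM without overlap (adjusted p = 0.0623 by edgeR). It was called by the DESeq2 Wald test, with no filter on low counts and without control replicate 1. The replicate block, alone or with the span correction, also called it.

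Markers of other cell types moved between the groups as well, and their part in the results above was not tested. Of 18 tested endothelial markers, 16 had a log2 fold change below 0, as had 6428 of all 12740 tested genes. Of the 18, 1 was called lower, or 5.56% beside 6.15% of all tested genes. This was VWF, from 236.2 ± 97.3 to 113.9 ± 7.68 CPM (adjusted p = 0.0237 by edgeR). The VWF call ended after the span correction and without control replicate 3 or any single test library (0.0658 to 0.106). Without control replicate 2, the lowest control for 17 of the 18, 6 endothelial markers were called lower. Calls lower over all genes then rose from 783 to 905. Summed endothelial levels were 1024 to 1653 CPM in control and 960.3 to 1081 CPM in test libraries. Relative to the summed raw counts of the endothelial list, RGS5 was lower in every test library, at 0.0369 to 0.042 against 0.0471 to 0.0771 in control, and ACTA2 at 0.0484 to 0.076 against 0.0963 to 0.138. PDGFRB was higher on this scale, at 0.243 to 0.31 against 0.128 to 0.206, and for each of these 3 ratios the exact permutation test gave 0.1, its lower limit, or 0.133 adjusted over the 8 ratios. PECAM1 made up 38.7% of the summed endothelial level.

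Fibroblast markers, which overlap with PDGFRB and ACTA2 in the cells that make them, split into 8 called lower and 5 called higher of 19 tested. Those shares are 42.1% and 26.3%, beside 6.15% and 6.84% of all tested genes. Without control replicate 3 or any single test library, 5 of the 19 were called each way. In those analyses 201 to 314 of all 13082 to 13127 tested genes were called lower and 245 to 396 higher. DPT fell from 159 ± 13.5 to 69.5 ± 2.67 CPM and FBLN1 rose from 2.49 ± 1.05 to 19.2 ± 0.547 CPM (adjusted p = 0.000404 and 0.000781 by edgeR). The summed level of the fibroblast list was 39810 to 59860 CPM in control and 46270 to 52950 CPM in test libraries. FN1 alone made up 38.5% of that sum. Of 17 tested skeletal muscle fibre markers 10 were called higher, or 58.8% beside 6.84% of all tested genes. The median log2 fold change of the 17 was 3.54. The summed level of this list was 112.3 to 128.1 CPM in control and 181.7 to 216 CPM in test libraries. MYBPC1 alone made up 59% of that sum. Macrophage markers had 5 of 16 called higher and 1 lower, with 1 or 2 called higher without control replicate 3 or any single test library and sums of 3680 to 3828 and 3370 to 3758 CPM, and fat cell markers 1 of 6 each way, with sums of 112.1 to 210.1 and 88.9 to 113.6 CPM. Macrophage markers called higher and lower were 31.2% and 6.25%, and fat cell markers 16.7% each way, beside 6.84% and 6.15% of all tested genes. LEP was the gene of these lists that had no count in any library.

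The genes whose levels tracked each member most closely were taken by Pearson correlation of log2 CPM over the 6 libraries, which share the division into groups, so the coefficients are descriptions without a p. For RGS5 they were PTPRJ, WDR26 and MFAP5 (r = 0.999, 0.993 and 0.993), and 163 genes with a symbol exceeded 0.95. PTPRJ, a receptor tyrosine phosphatase, fell from 73.6 ± 4.71 to 36.9 ± 3.79 CPM (adjusted p = 0.00185 by edgeR). ACTA2 was tracked by PLCB4, LBR and CCL11 (r = 0.995 each), of which CCL11, the eosinophil chemokine eotaxin, fell from 117.3 ± 40 to 18.2 ± 5.87 CPM (adjusted p = 0.000525 by edgeR). PPP1R12A was tracked by PDCD4, PHF14 and CLIC2 (r = 0.995, 0.993 and 0.993), with 191 genes above 0.95. For MYH11 the closest were ADCY7, EXT1 and ADPRH (r = 0.989, 0.988 and 0.987) and 28 genes exceeded 0.95, while for PDGFRB they were GLIS2, KLF10 and CYB5R1 (r = 0.988, 0.986 and 0.986) and 48 exceeded it. For ACTA2, 140 genes exceeded 0.95. Among the genes named as closest, WDR26, PLCB4, ADCY7, EXT1, ADPRH, GLIS2 and CYB5R1 were not called (adjusted p from 0.0672 to 0.502 by edgeR).

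**Figure D4:**
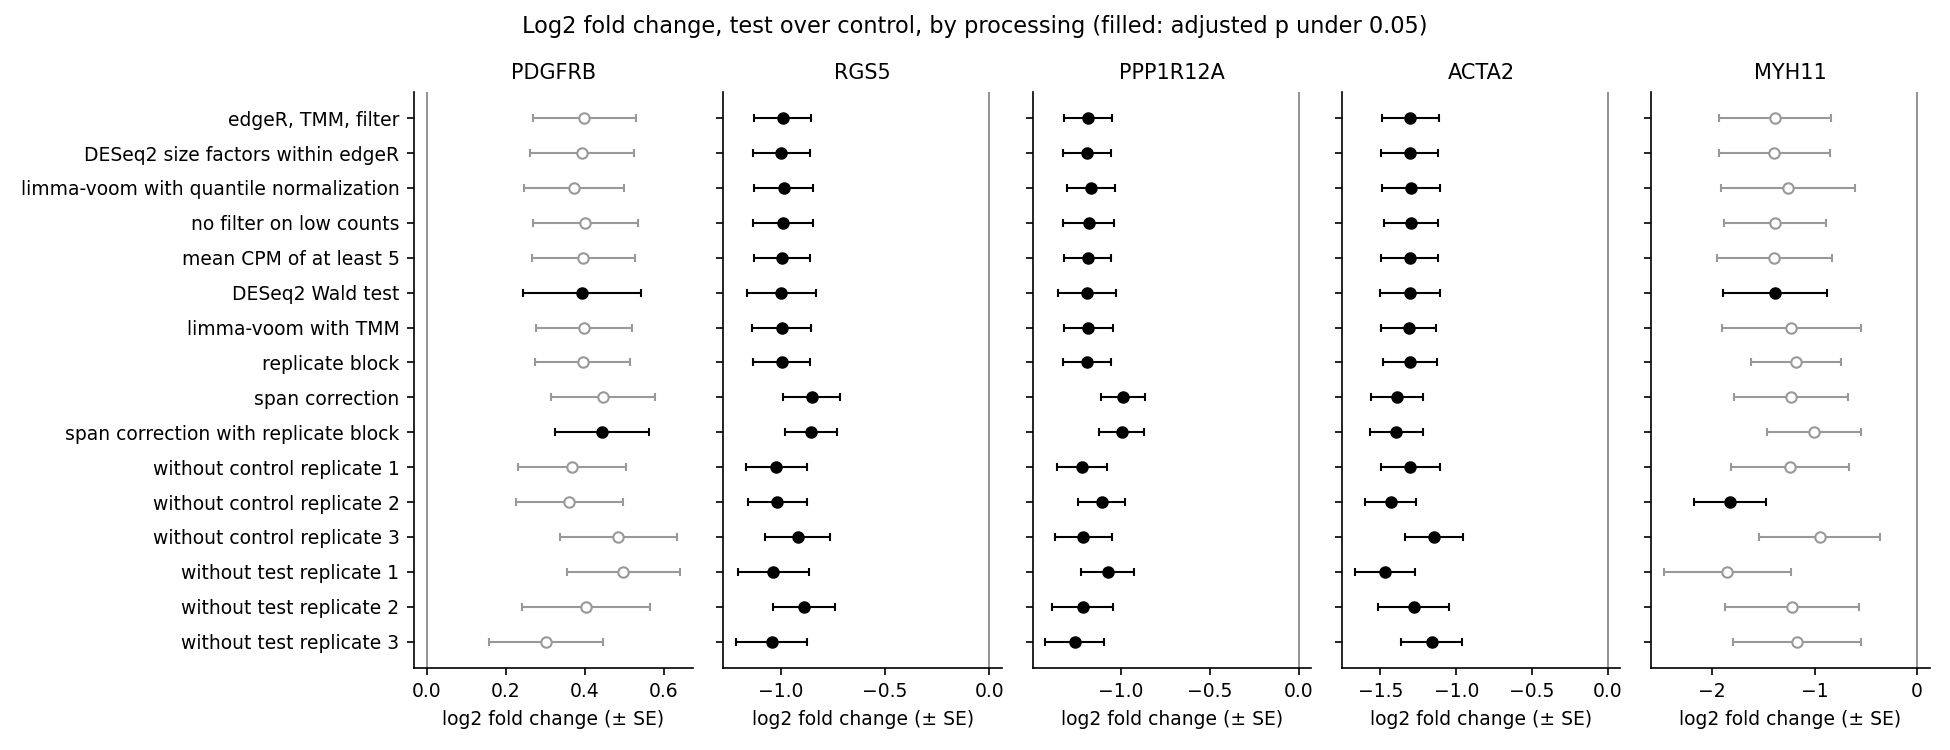
Log2 fold change of test over control with its SE for the 5 genes under the reported analysis (top) and 15 alternatives; filled points have an adjusted p under 0.05. RGS5, PPP1R12A and ACTA2 are filled throughout, PDGFRB is above 0 throughout but filled under 2 alternatives, and MYH11 is below 0 throughout and filled with the DESeq2 Wald test and without control replicate 2.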

How the data were processed

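RNA-seq of 3 control and 3 test libraries of rabbit tissue was analysed. Per the labels' protocols, TRIzol RNA was depleted of ribosomal RNA and made into stranded total RNA libraries. The authors deposited raw counts per gene, per the file headers, and a second block of 6 normalized columns was not used. The submitters' processing notes name cutadapt 1.9.3, HISAT2 and Cuffdiff, with no role stated for any, and the genome build rn6, which is rat where the gene identifiers are rabbit. How reads were counted, whether by strand and on which annotation, is not given in the sources used here, so reads of antisense neighbours and of paralogs may be mixed in, and no positions are given.

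Counts were tested with edgeR 4.0.16 (R 4.3.3), quasi-likelihood, two-sided, TMM normalization, filterByExpr (minimum count 10, minimum total 15), no block and no covariate, with Benjamini-Hochberg adjustment over 12740 genes. Each SE was taken as the size of the log2 fold change over the root of its F statistic. Alternatives used DESeq2 1.42.0, limma 3.58.1, other filters, a lowess correction (fraction 0.5, log2 CPM with pseudocount 0.5) for gene span from RefSeq, matched by gene number for 8880 tested genes, and each library left out. Plots were made with matplotlib 3.10.9. The fits were tested on simulated data, where the DESeq2 Wald test made more false calls than the others. Poisson intervals cover counting error only.

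The members and gene lists were chosen with earlier results of these data known. Named genes are the members, up to 4 genes per list with the smallest p, a set of companions, and the 3 genes most like each member. List counts and ratios under alternatives were added after seeing the data. The result of 1 contractile gene is not reported here.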

Additional observations from a re-analysis of the deposited data

How the results depend on the processing

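RGS5, PPP1R12A and ACTA2 kept their direction and their call in all 15 alternatives, with log2 fold changes of -1.04 to -0.85, -1.26 to -0.99 and -1.47 to -1.15. PDGFRB kept its direction in all 15 (0.30 to 0.50). It was called with the DESeq2 Wald test (0.39) and with the span correction and replicate block together (0.44). MYH11 kept its direction (-1.85 to -0.95) and was called with the DESeq2 Wald test (-1.39) and without control replicate 2 (-1.82). The number of genes called over the table was 1655 of 12740 tested in the reported analysis, and 446 to 2163 when 1 library was left out. With the span correction, which tested only the 8880 genes with a known span, it was 889. With the span correction and replicate block it was 912 of the same 8880. The DESeq2 Wald test called 2316 of 12740 tested genes, 1142 of them lower, in place of 1655 and 783. Among those called lower were 5 of 17 tested genes of the contractile list and 6 of 19 of the phosphatase list. They also held 7 of 20 calcium and channel genes and 15 of 70 genes of the KEGG pathway. The reported analysis called 2, 3, 4 and 10 of these lists lower. The labels do not state whether the replicate numbers pair the libraries. Deviations of same-numbered libraries correlated at 0.116, -0.0186 and 0.0246, and those of differently numbered libraries at -0.126 to 0.103. These values cannot decide it, since deviations from a group mean are bound to each other within 3 libraries. The replicate block alone gave 1681 calls and log2 fold changes of -0.99, -1.19, -1.30, -1.18 and 0.40 for RGS5, PPP1R12A, ACTA2, MYH11 and PDGFRB. Among the other named genes, signs turned in 4 that were not called. With the span correction, without and with the block, these were MYL9 (-0.27 and -0.28), SRF (-0.0247 and -0.0254) and EXT1 (0.062 and 0.0735). When 1 library was left out, MYL9 ranged from -0.068 to 0.152 and PDGFB from -0.291 to 0.268. The cause was not tested. Depth limits MYH11 most, where a library's counting interval extends up to 24.9% to either side, against 7.57% or less for the other 4 genes.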
